A study of Ovis aries with 16 samples.

Results

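Nuclear transcripts of oxidative phosphorylation and thermogenesis were followed in perirenal adipose tissue of near-term sheep fetuses, in 16 RNAseq libraries from 4 groups of 4 fetuses. The 26 transcripts are those that the study's pathway table prints for control males against control females under the KEGG pathways Oxidative phosphorylation and Thermogenesis, without the mitochondrially encoded ones. They were taken from 35219 transcripts in the deposited table. The pathway table lists 17 of them as lower in males and 9 as higher in males. In order of their mean level over the 16 libraries, the 17 are called L1 to L17 and the 9 are called H1 to H9 in the following.

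Each library came from 1 fetus. Male fetuses were controls (MC) or growth-restricted (MFGR), and so were female fetuses (FC and FFGR). All were singletons of crossbred Columbia-Rambouillet ewes. The ewes of MFGR and FFGR fetuses were kept at high ambient temperature for part of pregnancy (Hyperthermia in the labels). That exposure causes placental insufficiency in this model, and it ended well before tissue was collected near term. Control ewes (Control) were kept at a thermoneutral temperature and pair-fed. Feeding was thus matched, and growth restriction stands for heat exposure of the mother together with what follows from it.

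The respiratory chain passes electrons from NADH and succinate through complexes I to IV of the inner mitochondrial membrane, and ATP synthase uses the resulting proton gradient to make ATP. Most of their subunits come from nuclear genes and a few from the mitochondrial genome, so each complex is built from transcripts of both. In brown adipocytes the uncoupling protein UCP1 lets protons return without ATP synthesis, which gives heat, and perirenal fat of the fetal lamb is a classical brown depot used for this at birth. The KEGG Thermogenesis pathway holds most subunits of the respiratory chain beside signalling and chromatin factors of brown adipocytes, and subunits of the V-type proton ATPase of lysosomes stand in both Oxidative phosphorylation and Phagosome.

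Of the 17 transcripts listed as lower in males, 10 are printed under both pathways (L1 to L10), 1 under Oxidative phosphorylation only (L13) and 6 under Thermogenesis only (L11, L12 and L14 to L17). All 9 listed as higher are printed under Oxidative phosphorylation, and 3 of them also under Phagosome (H7 to H9). The other 6 (H1 to H6) also stand in all 4 of the lists for amyotrophic lateral sclerosis, Huntington disease, prion disease and diabetic cardiomyopathy, and 8 of the 17 in the list for Parkinson disease. No transcript stood in both directions. No table used here pairs these transcripts with gene symbols or sequences, so the subunit that each encodes is not given, and transcripts of 1 gene could not be summed.

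Levels are given as TPM, the deposited abundance scaled for transcript length. They can be compared between transcripts. TPM values sum to 1000000 in each library and keep no read counts, so depth is unknown. Between 20153 and 21917 transcripts were above 0 per library. Some adipocyte and brown adipocyte transcripts were abundant in every group and others were low. ADIPOQ (adiponectin) was at 2305 ± 79.0 TPM in MC and 2015 ± 292 TPM in MFGR, and at 2514 ± 641 TPM in FC and 2699 ± 524 TPM in FFGR (SD, n = 4 each). Group means of FABP4 lay between 2271 and 6015 TPM and those of UCP1 between 1956 and 2710 TPM. Those of leptin lay between 13.2 and 29.3 TPM. The 2 transcripts of CIDEA, a brown adipocyte marker, had group means of 76.4 to 122 TPM and 12.1 to 14.6 TPM. The 9 marker transcripts that could be used (1 each of ADIPOQ, FABP4, leptin, UCP1 and HOXC9, and 2 each of CIDEA and THY1) summed to between 5256 and 9758 TPM in MC libraries and between 6636 and 14286 TPM in MFGR libraries. In FC libraries they summed to between 6838 and 16705 TPM, and in FFGR libraries to between 6832 and 8792 TPM. Markers of endothelium, blood, muscle and other cell types could not be matched to the table. In bulk tissue, fewer cells of a type and less RNA per cell cannot be told apart.

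The 26 transcripts spanned a wide range of levels. The 10 transcripts printed under both pathways had means over the 16 libraries from 160 TPM (L10) to 2070 TPM (L1). The 6 printed under Thermogenesis only lay between 14.5 TPM (L17) and 84.0 TPM (L11). Among those listed as higher in males, H1 to H6 lay between 107 and 980 TPM, while H7, H8 and H9, shared with Phagosome, lay at 84.1, 15.95 and 6.06 TPM. Transcripts of both pathways were thus mostly the abundant ones, and those of Thermogenesis only and Phagosome were mostly low.

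**Figure D1:**
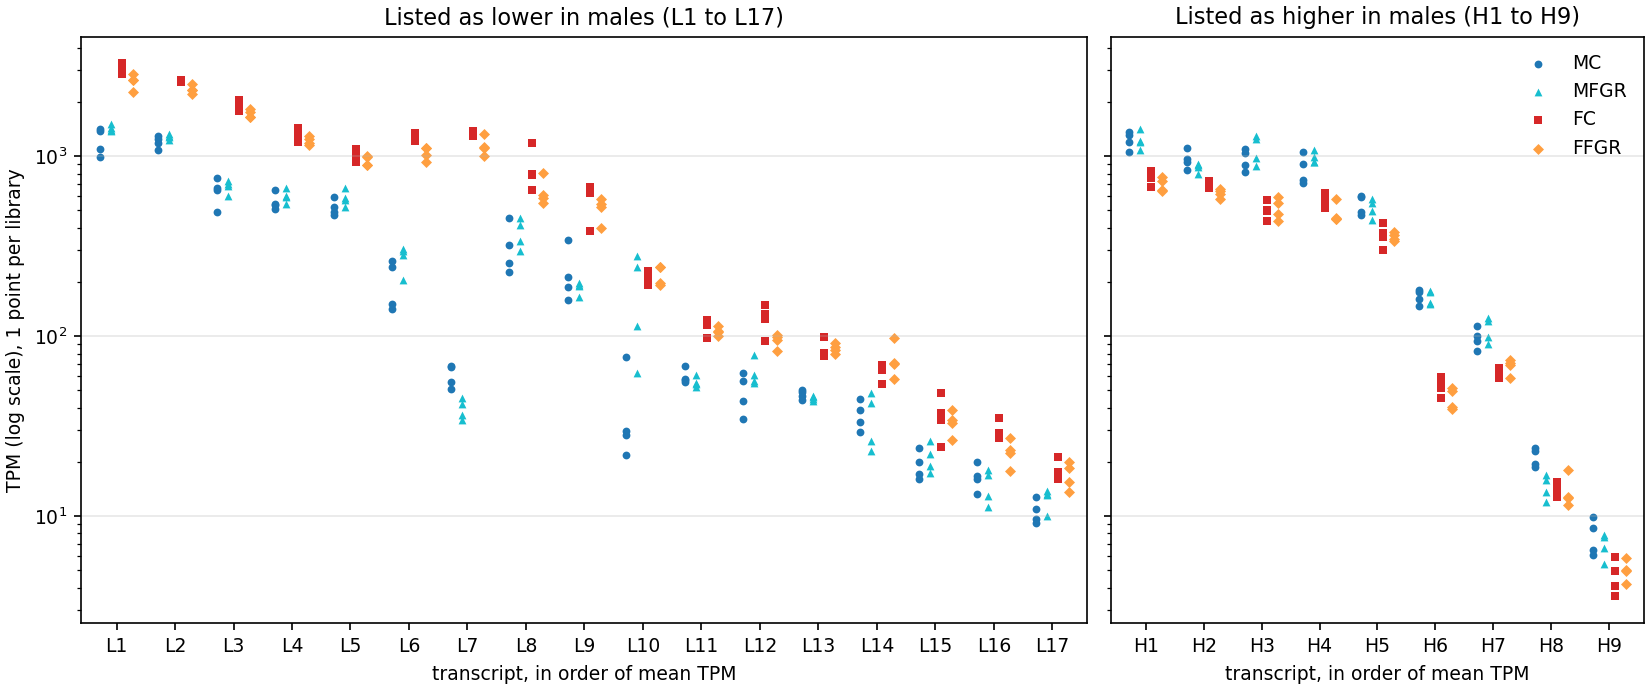
TPM (log axis) of each transcript in each of the 16 libraries, 1 point per library, with transcripts listed as lower in males on the left and as higher in males on the right, each in order of mean TPM. L7 lay between 34.2 and 68.3 TPM in the 8 male libraries and between 998 and 1375 TPM in the 8 female libraries, and L10 was lowest in MC.

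The transcripts were chosen by their difference between MC and FC, so these values describe the choice and were not tested. Listed as lower, L1 to L17 had differences of MC minus FC from -4.44 to -0.70 on the scale of log2(TPM + 1), with a median of -1.21. Listed as higher, H1 to H9 had differences from 0.47 to 1.62, with a median of 0.63. The median of the 4574 transcripts tested (20 TPM or more in 3 or more libraries) was -0.20. The values just inside the lists were -0.70 for L17 and 0.47 for H2, and pathway members that missed the lists were not analysed here.

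The MFGR and FFGR libraries were not in the comparison that chose the transcripts and give the comparison of the sexes that can be tested. They may have entered the study's expression filter, and the limma spread used here is shared by all 16 libraries. In growth-restricted fetuses, 15 of the 17 transcripts listed as lower were lower in males at an adjusted p under 0.05 in limma. Over all tested transcripts 32.8% were called lower. Their median difference of MFGR minus FFGR was -0.87, beside -0.19 over all tested transcripts. Both exceptions pointed the same way, with a log2 difference of -0.55 ± 0.41 (SE) for L10 (limma adjusted p = 0.293) and -0.39 ± 0.15 for L17 (adjusted p = 0.061 when the filter was lowered to 1 TPM, which kept 17291 transcripts). The MFGR and FFGR libraries did not overlap for 14 of the 17, with all MFGR libraries lower, as was so for 31.6% of all tested transcripts. L16 reached 20 TPM mostly in female libraries, and L17 stayed under the filter.

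L7 (ENSOART00020026250), printed under both pathways, had the widest sex difference of the 26. It was at 45.5, 34.2, 36.4 and 41.8 TPM in MFGR libraries 1 to 4 and at 1133, 998, 1116 and 1322 TPM in FFGR libraries 1 to 4. MC libraries held 50.7, 55.4, 67.4 and 68.3 TPM and FC libraries 1375, 1318, 1304 and 1295 TPM. Every male library was thus far below every female library, in control and growth-restricted fetuses alike. The mean in FFGR was 28.9 times that in MFGR, with a log2 difference of MFGR minus FFGR of -4.82 ± 0.12 (limma adjusted p = 1.54e-13). By p it ranked 5th among 4574 transcripts and by size 61st from the lowest.

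L6 (ENSOART00020002206), also under both pathways, came next. MFGR libraries held 206, 303, 299 and 283 TPM and FFGR libraries 1016, 1113, 931 and 1119 TPM. MC libraries held 151, 141, 244 and 262 TPM and FC libraries 1304, 1216, 1347 and 1301 TPM. Male and female libraries did not overlap, and MC libraries 1 and 2 were below the other male libraries. The mean in FFGR was 3.83 times that in MFGR, with a log2 difference of -1.95 ± 0.18 (limma adjusted p = 7.23e-07).

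With a fold above 1.5 also required, 15 of the 17 were still called, and so were 5 of the 9 listed as higher, beside 30.1% of all tested transcripts in either direction. Means of the other called transcripts listed as lower were in FFGR between 1.51 and 2.72 times those in MFGR. The most abundant, L1, held 1392, 1434, 1507 and 1376 TPM in MFGR and 2642, 2660, 2263 and 2885 TPM in FFGR, a log2 difference of -0.87 ± 0.12 (limma adjusted p = 2.97e-05). L2 stood at 1288 ± 41.5 TPM in MFGR and 2359 ± 126 in FFGR (SD, n = 4 each). For L3 the means were 676 ± 54.8 and 1728 ± 87.2 TPM, and for L9 they were 187 ± 14.4 and 509.5 ± 78.9 TPM. By pathway, the median log2 difference of MFGR minus FFGR was -0.95 for the 10 transcripts printed under both, of which 9 were called, and -0.61 for the 6 printed under Thermogenesis only, of which 5 were called. L13, printed under Oxidative phosphorylation only, had a difference of -0.91 and was called. The difference between these pathway groups was not tested.

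Of the 9 transcripts listed as higher in males, 7 were higher in MFGR than in FFGR at an adjusted p under 0.05 in limma. Over all tested transcripts 12.0% were called higher. Their median difference of MFGR minus FFGR was 0.67. H8 and H9, both shared with Phagosome and both under the filter, had log2 differences of 0.09 ± 0.15 (SE, limma adjusted p = 0.705) and 0.39 ± 0.18 (adjusted p = 0.115) in the fit at 1 TPM. The libraries of the groups did not overlap for the same number, 7 of 9, with all MFGR libraries higher, beside 10.7% of all tested transcripts.

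H6 (ENSOART00020000715) had the widest difference among them. MFGR libraries held 151, 179, 153 and 176 TPM and FFGR libraries 39.1, 40.1, 49.7 and 51.3 TPM. MC libraries held 146, 181, 160 and 176 TPM and FC libraries 51.6, 45.6, 59.4 and 56.9 TPM. All 8 male libraries lay above all 8 female libraries. The mean in MFGR was 3.65 times that in FFGR, with a log2 difference of 1.85 ± 0.12 (limma adjusted p = 8.47e-09).

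H3 (ENSOART00020028541) followed. It was at 879, 1247, 1295 and 979 TPM in MFGR and at 548, 597, 480 and 435 TPM in FFGR. MC libraries held 1045, 818, 889 and 1101 TPM and FC libraries 572, 496, 435 and 504 TPM. The male libraries varied more than the female libraries but did not reach them. The mean in MFGR was 2.14 times that in FFGR, with a log2 difference of 1.09 ± 0.15 (limma adjusted p = 3.23e-05). Means of H1, H2, H4, H5 and H7 in MFGR were between 1.38 and 2.05 times those in FFGR.

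**Figure D2:**
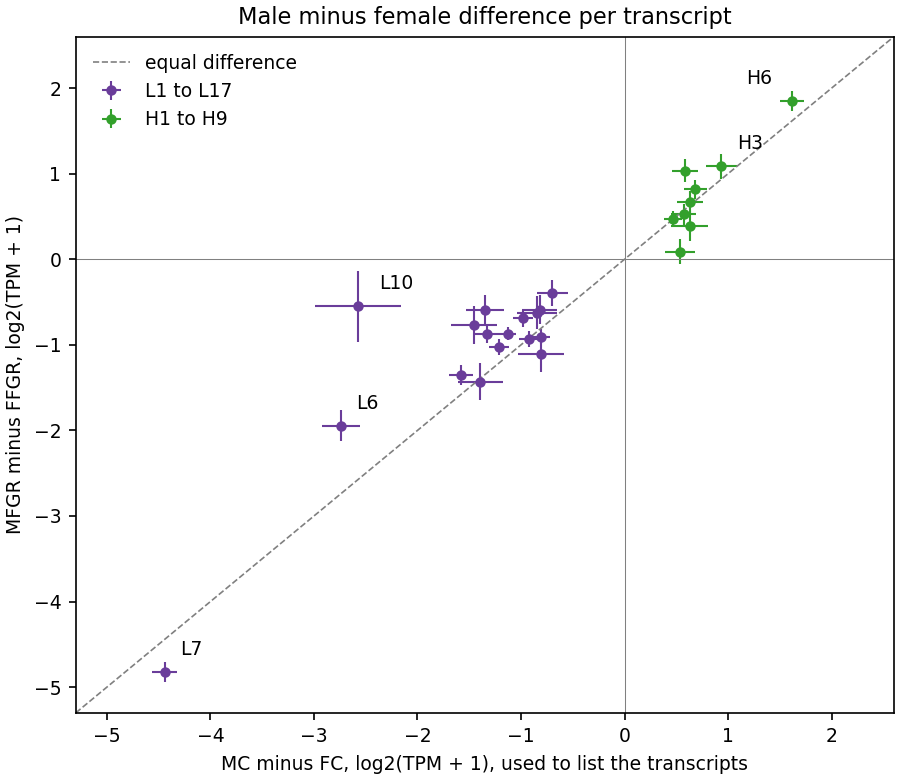
Male minus female difference of each transcript on the log2(TPM + 1) scale in control fetuses (x axis, the libraries on which the transcripts were listed) and in growth-restricted fetuses (y axis, libraries not compared for the listing), with bars of 1 SE and a dashed line of equal difference. All 26 lie on the same side of 0 on both axes, and L10 lies farthest from the line, at -0.55 on the y axis.

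Of the 17 transcripts listed as lower, 12 had a smaller sex difference in growth-restricted than in control fetuses, and so had 3 of the 9 listed as higher. Most of the 9 thus had a larger difference in growth-restricted fetuses. Choosing transcripts by the control difference favours a smaller one in other libraries, and its part in these counts was not tested. The share over all tested transcripts was not computed, and the interaction is given below. The scale of the table also enters. Median-of-ratios scaling moved the median difference of all tested transcripts between MFGR and FFGR from -0.19 to -0.00, and quantile normalization moved it to 0.09. Calls over all transcripts went from 1502 lower and 551 higher to 1133 lower and 1026 higher, and to 939 lower and 1184 higher. Under both scalings 12 of the 17 were still called lower and 7 of the 9 higher, and L12, L15 and L16 lost their calls.

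Sex cannot be told apart here from a difference between male and female libraries in how reads were obtained or assigned to transcripts, which would recur in both pairs of groups. Of the 4574 tested transcripts, 44.9% differed between MFGR and FFGR at an adjusted p under 0.05 in limma. Among the 11 mitochondrially encoded transcripts, which belong to the same complexes, ATP6 and ND2 fell in MFGR against FFGR, and COX2, COX3, ND3, ND6 and CYTB rose. ND6, a complex I subunit whose gene lies on the opposite mitochondrial strand to the others, had a mean in MFGR of 9.89 times that in FFGR, and ND5, also of complex I, of 1.08 times. Of the 9 marker transcripts, 1 of the 2 of CIDEA was lower and FABP4 was higher in MFGR (limma adjusted p = 0.0013 and 0.0257), while ADIPOQ and UCP1 did not pass (adjusted p = 0.0797 and 0.767). FABP4 pointed the other way in control fetuses, with means of 2445 TPM in MC and 5205 TPM in FC (limma adjusted p = 0.0878). HOXC9, taken from the fit at 1 TPM, was lower in MFGR (limma adjusted p = 0.000601). Of the 2 THY1 transcripts, 1 was at 1.70 to 3.82 TPM in MFGR and 8.40 to 49.0 TPM in FFGR. It passed the filter through female libraries alone. The other THY1 transcript was at 14.9 to 35.4 TPM in MFGR and 6.51 to 35.5 TPM in FFGR. Its log2 difference was 0.37 ± 0.47 (SE, limma adjusted p = 0.541). In control fetuses its mean was higher in males, at 56.3 TPM in MC and 26.3 TPM in FC (limma adjusted p = 0.0587). The part of these in the sex differences was not tested.

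Summed over the list, the lower-listed transcripts held 4545 to 5910 TPM in MC and 5516 to 6326 TPM in MFGR, against 14180 to 15584 TPM in FC and 12151 to 13402 TPM in FFGR. The higher-listed transcripts summed to 4398 to 5496 TPM in MC and 4657 to 5462 TPM in MFGR, against 2886 to 3206 TPM in FC and 2737 to 2866 TPM in FFGR. Male and female libraries overlapped in neither sum. In growth-restricted fetuses the female mean of the lower-listed sum was 2.19 times the male mean, and the male mean of the higher-listed sum was 1.78 times the female mean. Without L7 the lower-listed sums were 5833 ± 352 TPM in MFGR and 11708 ± 471 TPM in FFGR (SD, n = 4 each), so most of the difference remained without L7. The 3 most abundant transcripts of the list held 57.7% of its TPM in MFGR and 52.1% in FFGR.

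In males, the lower-listed sum was 1.08 ± 0.0539 times the higher-listed sum in MC and 1.18 ± 0.0964 times in MFGR. In females it was 4.83 ± 0.138 times in FC and 4.58 ± 0.150 times in FFGR (SD, n = 4 each). This ratio does not change with the scale of a library. Male and female libraries fell into 2 separate ranges, from 1.03 to 1.26 and from 4.44 to 4.93. Since the lists were chosen for opposite directions, the ratio in MC and FC is a description. All 26 together held 1.01% and 1.09% of the TPM in MC and MFGR, and 1.76% and 1.57% in FC and FFGR. The 11 mitochondrially encoded transcripts held 39.3 ± 3.55%, 33.6 ± 4.02%, 33.4 ± 4.28% and 32.2 ± 4.92% in the same order, which changes what is left for nuclear transcripts.

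**Figure D3:**
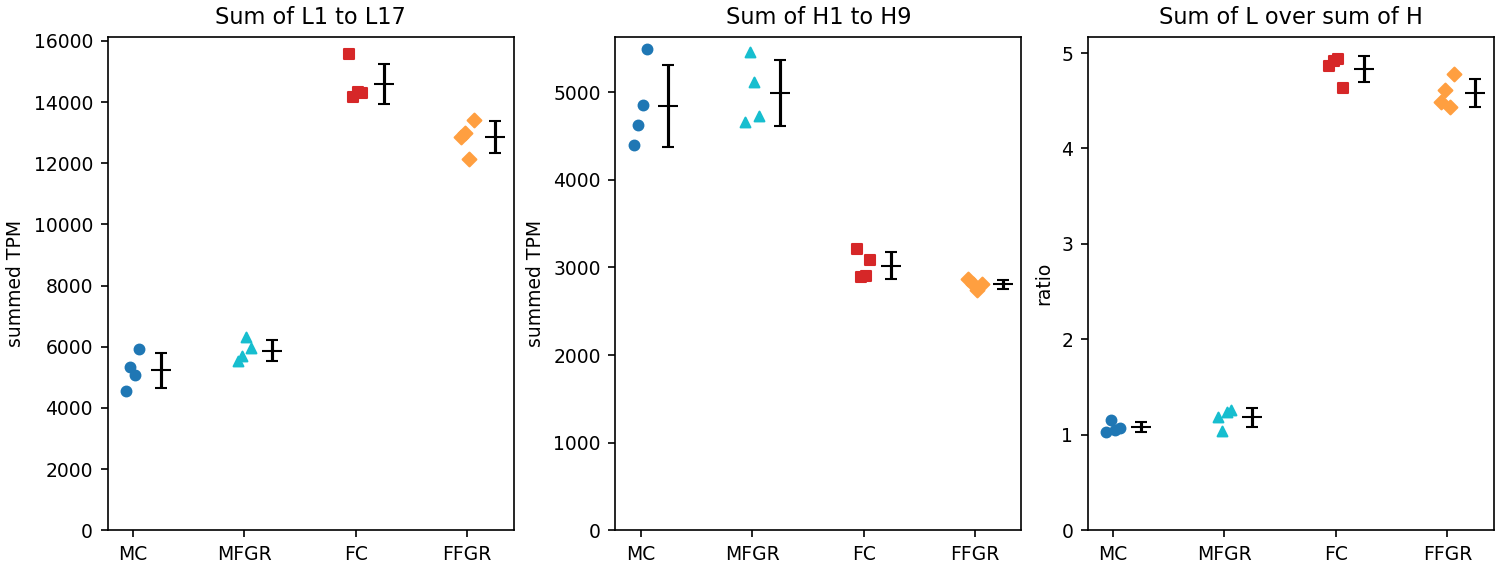
Summed TPM of L1 to L17 (left), summed TPM of H1 to H9 (middle) and their ratio (right) in each library, with the mean and SD of each group of 4. The ratio lies between 1.03 and 1.26 in the 8 male libraries and between 4.44 and 4.93 in the 8 female libraries.

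Growth restriction was compared with control within each sex. These comparisons share the MC or FC libraries with the choice of the transcripts, so a low MC value or a high FC value that helped a transcript onto the list also enters here. In males, 2 of the 26 passed at an adjusted p under 0.05 in limma, beside 0.525% of all tested transcripts. L7 was lower in MFGR and L10 higher. The share over all tested transcripts was not stable. It stood for 11 lower and 13 higher calls, which became 92 and 139 with a weight for each library. On rescaling without the mitochondrial transcripts, 179 of 4563 were lower and 29 higher. In both of these alternatives 2 of the 26 were called. With only the 8 male libraries, 0 of all tested transcripts were lower and 5 higher. At an unadjusted p under 0.05 there were 3 of the 17 listed as lower and 1 of the 9 listed as higher, beside 17.7% of all tested transcripts. Median differences of MFGR minus MC were 0.11 and -0.01, beside -0.02 for all tested transcripts. For the 16 lower-listed transcripts that passed the filter the median of 0.10 turned to -0.05 with quantile normalization and to -0.03 on rescaling without the mitochondrial transcripts.

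L10 (ENSOART00020001447), singled out after its values were seen, had the widest difference. MC libraries held 28.2, 76.3, 21.8 and 29.5 TPM and MFGR libraries 62.7, 114, 277 and 242 TPM. FC libraries held 220, 230, 193 and 198 TPM and FFGR libraries 192, 198, 242 and 243 TPM. Libraries 3 and 4 of MFGR were thus within or above the range of the females, library 1 of MFGR was below library 2 of MC, and the male groups overlapped. The mean in MFGR was 4.46 times that in MC, with a log2 difference of 2.07 ± 0.41 (limma adjusted p = 0.0381). Its spread within MFGR was the widest of the 17, with a coefficient of variation of 58.8%.

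L7 was at 60.4 ± 8.80 TPM in MC and 39.5 ± 5.13 TPM in MFGR (SD, n = 4 each), and the 4 MFGR libraries lay below the 4 MC libraries, as they did for 1 of the 9 listed as higher (H8) and for 4.24% of all tested transcripts. The log2 difference was -0.60 ± 0.12 (limma adjusted p = 0.0381). Of the 4 groups, MFGR thus had the lowest level of L7. Neither call held in several alternatives. With only the 8 male libraries in the fit the adjusted p was 0.128 for L7 and 0.148 for L10, and without MC library 3 it was 0.113 for both.

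In females, 0 of the 26 and 0% of all tested transcripts passed in FFGR against FC in limma, with 337 of 4574 (7.37%) and 1 of the 26 (L16, listed as lower) at an unadjusted p under 0.05. Over the 17291 transcripts of the fit at 1 TPM, which gave L17, H8 and H9, 3 were called lower and 1 higher. Of the 17 listed as lower, 14 had a lower mean log2 value in FFGR, with a median difference of -0.13 beside -0.02 over all tested transcripts. The FFGR libraries lay wholly below the FC libraries for 3 of them, L2, L6 and L16, beside 2.89% of all tested transcripts. L6 was at 1292 ± 55.1 TPM in FC and 1045 ± 89.4 TPM in FFGR (SD, n = 4 each), a log2 difference of -0.31 ± 0.18 (limma adjusted p = 0.753). Listed as higher, H1 to H9 had a median difference of -0.07, and for H2 too the FFGR libraries lay wholly below the FC libraries.

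**Figure D4:**
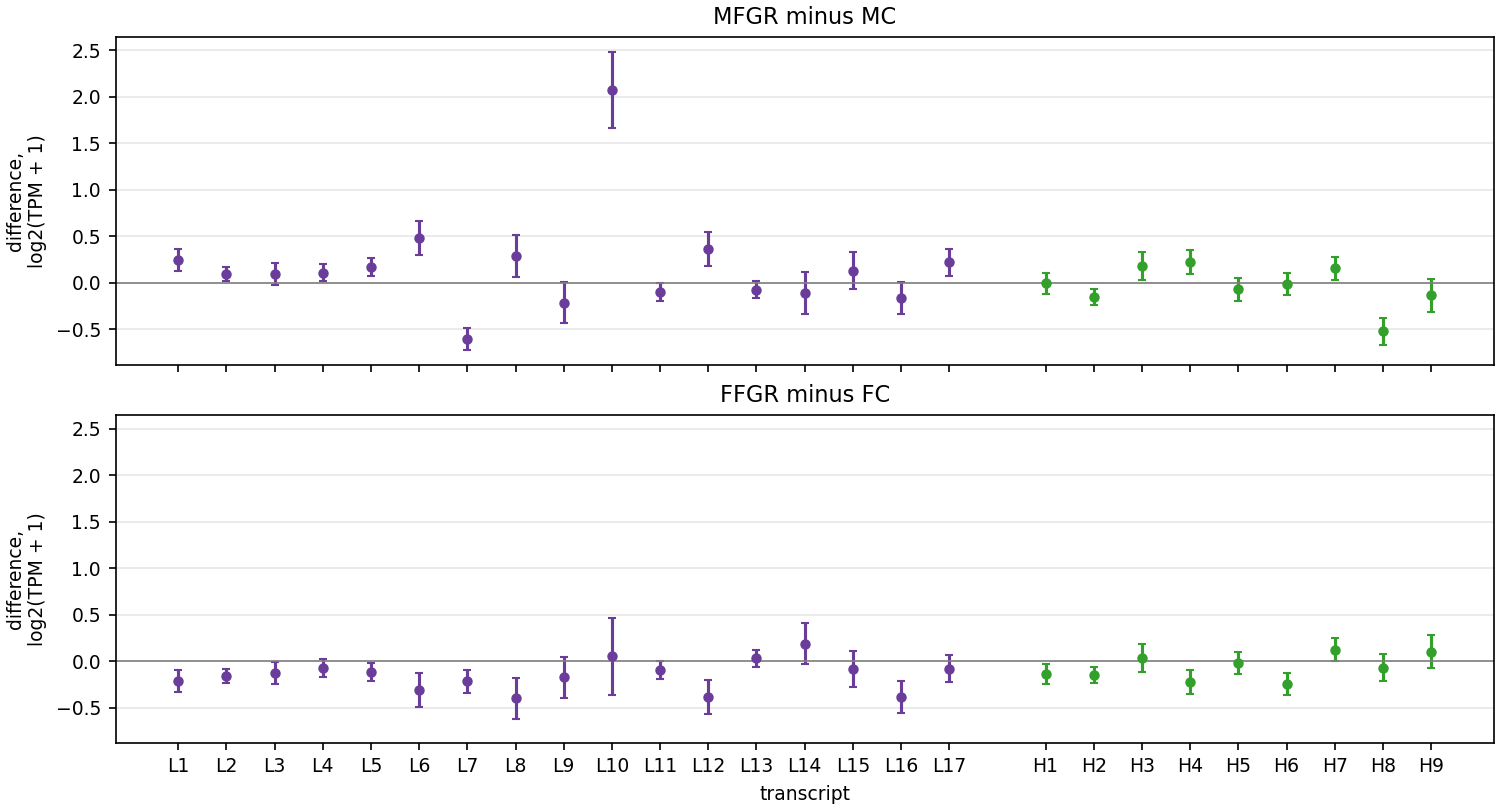
Difference between growth-restricted and control fetuses on the log2(TPM + 1) scale for each transcript, in males (top) and females (bottom), with bars of 1 SE. L10 stands apart in males at 2.07 and lies at 0.05 in females, and L7 lies at -0.60 in males and -0.22 in females.

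The interaction of sex and growth restriction was tested in the same fit, as the male difference minus the female difference. None of the 26 passed in limma, and neither did any other tested transcript (0%), with 511 of 4574 (11.2%) at an unadjusted p under 0.05. Among the 26, 7 of the 17 listed as lower and 2 of the 9 listed as higher had an unadjusted p under 0.05. L10 had an interaction of 2.02 ± 0.58 (limma adjusted p = 0.272). For L6 it was 0.80 ± 0.26 (adjusted p = 0.326) and for L7 it was -0.38 ± 0.17 (adjusted p = 0.44). A difference in the response to growth restriction between the sexes was therefore not shown for any of them, and the interaction rests on the MC and FC libraries that chose the list.

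UCP1, the uncoupling protein, is represented by 1 transcript in this comparison. The listed transcripts were chosen for a difference between MC and FC and UCP1 was not, so their separation is no measure for it. Over all tested transcripts, MFGR and FFGR libraries did not overlap for 31.6% (MFGR lower) and 10.7% (MFGR higher). UCP1 held 1548, 3366, 1317 and 1596 TPM in MC libraries and 2292, 2889, 1520 and 2144 TPM in MFGR libraries. FC libraries held 1839, 1803, 4430 and 2768 TPM and FFGR libraries 1655, 2327, 2378 and 3441 TPM. All 4 groups overlapped. Since the sexes form separate clusters for the listed transcripts, correlations with UCP1 were taken within each sex, over 8 libraries that hold both control and growth-restricted fetuses. The correlation of the lower-listed sum with UCP1 had a Pearson r of 0.13 in males and 0.04 in females (Spearman rho 0.02 and 0.26), and that of the higher-listed sum -0.03 and -0.18 (rho -0.17 and -0.07). Leaving out 1 library at a time gave r from -0.15 to 0.37 for the lower-listed sum in males and from -0.18 to 0.38 in females, so its sign rested on single libraries.

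**Figure D5:**
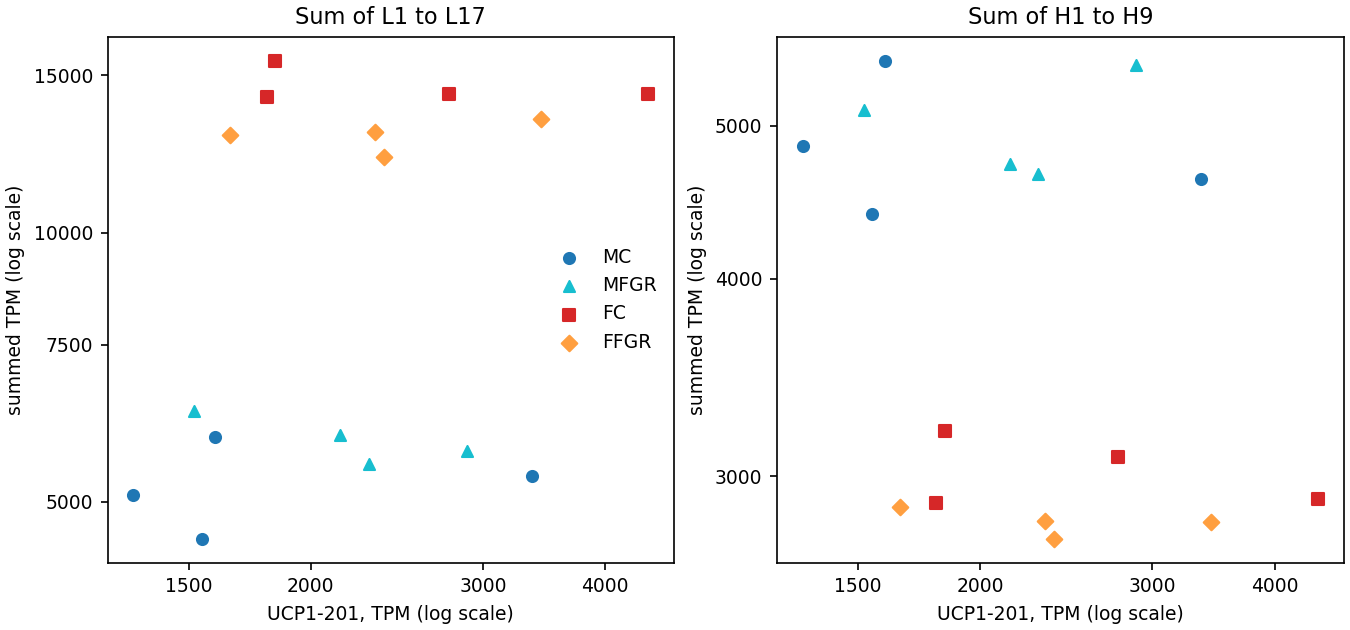
Summed TPM of L1 to L17 (left) and of H1 to H9 (right) against TPM of UCP1, both on log axes, 1 point per library. UCP1 runs from 1317 to 4430 TPM over the 16 libraries, and in both panels the male and female libraries form separate bands.

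In exact permutation tests over the 40320 pairings of 8 libraries, 0 of the 23 listed transcripts that passed the filter correlated with UCP1 after adjustment over all tested transcripts, in either sex, and no other tested transcript did. The smallest adjusted p of the 23 was 0.404 in males and 0.385 in females, and that of all tested transcripts was 0.225 and 0.170. By Pearson's r there were, at an unadjusted p under 0.05, 0 of 23 in males, beside 572 of 4541 tested transcripts, and 2 of 23 in females, beside 518 of 4567. Those were H5 (r = -0.78, exact permutation p = 0.0209, adjusted p = 0.385) and H3 (r = -0.74, exact permutation p = 0.0385, adjusted p = 0.424). By rank neither passed even without adjustment, with rho of -0.60 for H5 (exact permutation p = 0.132) and -0.64 for H3 (exact permutation p = 0.0962). H6 pointed the other way, with rho of 0.76 (exact permutation p = 0.0368, adjusted p = 0.4996) and r of 0.70 (exact permutation p = 0.0537). Without the 2 libraries farthest from the median of UCP1, r was -0.43 for H5, -0.25 for H3 and 0.54 for H6. The median r of L1 to L17 was -0.08 in males and 0.12 in females, beside -0.23 and 0.07 over all tested transcripts, and that of H1 to H9 was -0.16 and -0.10.

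Between fetuses of a group, the median coefficient of variation of L1 to L17 was 17.2% in MC and 13.0% in MFGR, where all tested transcripts had medians of 16.5% and 16.1%. In females it was 10.0% in FC and 9.88% in FFGR, below the 15.6% and 15.3% of all tested transcripts. That of H1 to H9 lay between 8.67% in FC and 13.6% in FFGR. The transcripts did not move closely together from fetus to fetus. After the mean of each group was taken off, the median correlation over the 16 libraries was 0.12 between pairs of L1 to L17 and 0.31 between pairs of H1 to H9, where pairs of all tested transcripts had 0.12. Pairs of 1 transcript from each list had a median of 0.19. All these correlations share the total of each library.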

How the data were processed

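RNA of perirenal adipose tissue from 16 fetuses was sequenced on a NextSeq500. Per the study's methods, read quality was checked with FastQC 0.11.9, low-quality sequences were discarded, and transcripts were quantified with Salmon (version not given in the sources used here) against the Ensembl transcripts of Oar_rambouillet_v1.0. The authors deposited TPM per transcript and library. In the study, counts were transformed to log2 CPM with edgeR in preprocessing and groups were compared in the iDEP application, and those counts were not used here.

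Groups and numbers came from the sample labels. The scale for all tests was log2(TPM + 1), and limma 3.58.1 under R 4.3.3 fitted 1 mean for each of the 4 groups, a trended prior variance and 12 residual degrees of freedom. Fold changes of low transcripts are understated on this scale. A filter of 20 TPM or more in 3 or more libraries left 4574 transcripts for testing, among them 23 of the 26. For L17, H8, H9 and the marker transcripts under the filter (HOXC9 and 1 of CIDEA) it was lowered to 1 TPM, which left 17291. Benjamini-Hochberg adjustment ran over all transcripts tested, and a transcript was called at an adjusted p under 0.05 at any fold. Correlations were tested by exact permutation, two-sided (Python 3.11.15, scipy 1.17.1). The fits were tested on simulated data for MFGR against FFGR. Of 100 transcripts with a 2-fold difference 66 were called, and of 100 with a 4-fold difference 93. Among the unchanged transcripts 9 were called. Differences of 2-fold could thus be missed. With TPM alone, no counting interval can be given, and precision comes from the spread between fetuses.

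The members and lists were chosen with earlier results of these data known. Of the transcripts with no gene name, those given with their identifier were the 2 lower-listed and 2 higher-listed with the largest difference between MFGR and FFGR among those past the threshold, plus L10, added after its values were seen. Names of mitochondrial and marker transcripts are those the study pairs with their identifiers. The CIDEA transcript under the filter bears an identifier that the study also prints for TCF21, a white adipose marker. TCF21 was not followed here. The reference table (ARS-UI_Ramb_v3.0) holds 0 Ensembl identifiers and gave no names. Alternatives were another pseudocount, 2 other filters, 3 other scalings, another prior, library weights, fewer libraries, a fold above 1.5, a replicate block and leaving out each library.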

Additional observations from a re-analysis of the deposited data

Results flagged for a closer look

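Among 4 libraries of a group, 1 library stood far from the other 3 in 5 of 108 groups checked, by Dixon's test at the 95% level. Chance gives about 1 in 20, or 5.4 here. L10 was at 76.3 TPM in MC library 2, above the other MC libraries, and UCP1 was at 3366 TPM in the same library. L11 was at 68.5 TPM in MC library 3. L13 was at 99.1 TPM in FC library 1, and H4 was at 579 TPM in FFGR library 4.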

How the results depend on the processing

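In MFGR against FFGR, 15 of the lower-listed transcripts were called with every alternative except median-of-ratios scaling and quantile normalization, which called 12 each, and leaving out 1 library, which called 14 to 15 (L15 was lost without FFGR library 1 or MFGR library 1, adjusted p = 0.0513 and 0.0517). The 7 higher-listed calls were made throughout, apart from a fold above 1.5, which left 5. In MFGR against MC, the 2 calls went to 0 with a filter at 1 TPM, with no filter, with quantile normalization, with only the 8 libraries compared and with the replicate block, to 1 with median-of-ratios scaling, and to between 0 and 2 on leaving out 1 library. They went to 0 without FC library 1, 2 or 4, FFGR library 1 or 3, MC library 1, 3 or 4, or MFGR library 2, 3 or 4, and to 1 without FFGR library 4. The cause was not tested. The interaction gained 1 call, L10 (adjusted p = 0.0491), with a weight for each library. FFGR against FC and the correlations with UCP1 stayed at 0 calls among the listed transcripts. Single transcripts were followed under the alternatives for MFGR minus FFGR (the 23 past the filter). L7 and L10 were also followed for MFGR minus MC, and L10 for the interaction. None of these differences changed sign. Other differences of MFGR minus MC were not followed one by one, and their median changed sign under some scalings, as given above.

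Replicate numbers were used as a block although nothing ties equal numbers to a shared animal. Deviations of same-numbered libraries correlated at -0.21 to 0.27, above 0.1 in 6 of 24 pairs, and 5 of 8 MFGR and FFGR libraries correlated best with their own number. With the block, 15 lower-listed and 7 higher-listed transcripts were called in MFGR against FFGR. Summing TPM over the transcripts of a gene was not run, since no table pairs them. Depth is unknown for these values.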
